A study of Mus musculus with 4 samples.

Results

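Testis somatic cells were compared with ovary somatic cells of mouse fetuses at 15.5 days post coitum (dpc). They are 2 of the 4 RNA libraries of the series and were taken by their labels, and no measured value was used to choose them. CF1 females had been mated with TgOG2 males, and every fetus group of the series comes from that cross. In the TgOG2 strain the promoter of Oct4, now Pou5f1, controls enhanced green fluorescent protein (GFP), which lights up germ cells. Flow sorting then parted the gonad cells with GFP signal from those without. The testis somatic and ovary somatic libraries are the GFP-negative fractions of male and female gonads, with 1 library each. The fractions are therefore mixtures of all cells without reporter signal. The labels do not say how many fetuses were pooled or whether the mesonephros was removed. The male and female germ cell libraries are used here for levels set side by side.

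The gonads of both sexes arise from the same bipotential primordium. In the testis, the transcription factors SRY and SOX9 direct supporting cells to become Sertoli cells, which secrete anti-Müllerian hormone (AMH) and desert hedgehog (DHH), and fetal Leydig cells between the cords make androgens and insulin-like 3. In the ovary, WNT4, RSPO1 and FOXL2 act in supporting cells that become pregranulosa cells, and AMH signalling, which removes the Müllerian duct in males, stays off. The comparison addresses which genes of these programs, and which other genes, stood apart between the somatic cells of the 2 sexes.

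Levels are given as deposited signal per 1000000 of the library total (SPM) and are not divided by gene length unless "per kb" is written. Depth was estimated at 17.6 M fragments for testis somatic cells and 24.2 M for ovary somatic cells, where M stands for 1000000. With 1 library on each side there was no replicate, so no difference could be set against a spread between animals and no p-value is given. Each ratio carries a 95% interval from an exact conditional binomial calculation on the estimated fragments. These intervals, and the floor of 3 fragments used where a gene was at 0, cover counting error only. The floor was worth 0.171 SPM in testis somatic cells and 0.124 SPM in ovary somatic cells. In sorted mixtures, fewer cells of a type and less RNA per cell cannot be told apart.

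The 4 marker genes fitted the labels: Amh of Sertoli cells, Cyp17a1 of fetal Leydig cells, and Fst and Foxl2 of pregranulosa cells. Amh was at 258 SPM in testis somatic cells and 0.393 SPM in ovary somatic cells. Cyp17a1, which encodes the androgen-forming 17α-hydroxylase, was at 347 SPM in testis somatic cells and 6.27 SPM in ovary somatic cells. Fst, which encodes the activin-binding protein follistatin, was at 7.02 SPM in testis somatic cells and 728 SPM in ovary somatic cells. Foxl2 was at 0.167 SPM in testis somatic cells and 9.28 SPM in ovary somatic cells. Amh and Cyp17a1 were thus high in the testis library alone of the 2, and Fst and Foxl2 in the ovary library alone. Genes that gonadal somatic cells of both sexes use were close: Nr5a1, the steroidogenic factor 1 gene, was at 303 SPM in testis and 288 SPM in ovary somatic cells, and Gata4 at 209 SPM in testis and 287 SPM in ovary somatic cells.

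A gene was called different when its ratio was at least 4-fold and its level at least 5 SPM in the higher library. By this size rule 307 genes were higher in testis somatic cells, 2.59% of the 11832 genes at 5 SPM or more in either library, and 420 were higher in ovary somatic cells, 3.55% of the same genes. Most genes lay close to each other: 9702 of the 11832 genes, or 82.0%, were within 2-fold. At least 20-fold differences were found for 75 of the testis-higher genes and 83 of the ovary-higher genes. Levels reached at least 100 SPM in the higher library for 59 of the testis-higher and 73 of the ovary-higher genes. The median log2 difference over genes at 5 SPM or more was -0.12, so the typical gene stood slightly lower in the testis library. Scaling with trimmed-mean-of-M factors moves all log2 differences by 0.11 towards the testis, and the calls then numbered 344 testis-higher and 378 ovary-higher genes.

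**Figure D1:**
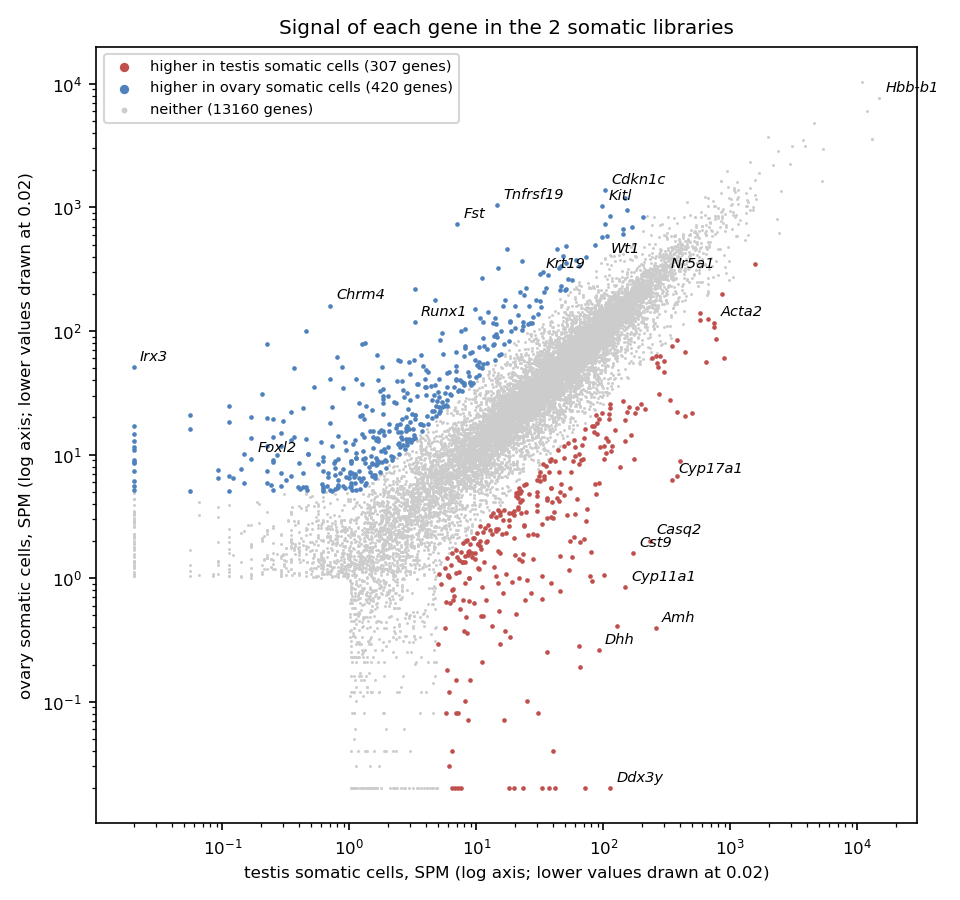
Signal of each gene at 1 SPM or more in at least 1 of the 2 somatic libraries, with testis somatic cells on the x axis and ovary somatic cells on the y axis, both in SPM on log axes. Red points are the 307 genes higher in testis and blue points the 420 genes higher in ovary somatic cells by the size rule; Nr5a1 lies in the grey band that holds most genes, while Amh and Fst lie far from it on opposite sides.

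The genes furthest apart towards the testis, ranked by the ratio of SPM + 0.5 among genes at 20 SPM or more, joined Sertoli, Leydig and Y-linked genes to a few genes outside the lists. Amh (mm9 chromosome 10, 80267992 to 80270393) led with a ratio of 657 (365 to 1516), with 9 fragments in ovary somatic cells. Cbln1, which encodes a secreted cerebellin, was at 129 SPM in testis and 0.413 SPM in ovary somatic cells, a ratio of 313 (169 to 652). Casq2, the gene of a calcium-binding protein of the sarcoplasmic reticulum, was at 235 SPM in testis and 2.01 SPM in ovary somatic cells, a ratio of 117 (87.4 to 157). These genes were well counted in the testis library and nearly empty in the ovary library. Ren1, which encodes renin, was at 65.6 SPM in testis and 0.191 SPM in ovary somatic cells. Its near-identical copy Ren2 was listed over nearly the same interval of chromosome 1 at 64.3 SPM in testis and 0.282 SPM in ovary somatic cells, and the reads of Ren1 and Ren2 cannot be assigned to a single copy. Dhh and Cyp11a1 were also among the 10, as were the Y-linked genes Ddx3y, Kdm5d and Uty.

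Towards the ovary, the 10 genes furthest apart by the same ranking included Fst and the genes of a muscarinic receptor, a calcium-binding protein and a homeobox factor. Chrm4, a muscarinic acetylcholine receptor gene, was at 0.707 SPM in testis and 160.4 SPM in ovary somatic cells, 227-fold higher in the ovary (134 to 455). It overlaps Mdk on the other strand, and Mdk was at 363 SPM in testis and 161 SPM in ovary somatic cells, the opposite order to Chrm4. Calb1, the calbindin gene, was at 0.456 SPM in testis and 99.6 SPM in ovary somatic cells, 218-fold higher in the ovary (111 to 507). Tnfrsf19, which encodes a receptor of the tumour necrosis factor receptor family, had a far higher level, with 14.5 SPM in testis and 1049.9 SPM in ovary somatic cells (72.4-fold, 63.9 to 82.1). Fst (chromosome 13, 115242469 to 115248938) was 104-fold higher in the ovary (87.1 to 125). The homeobox gene Irx3 was listed at 0 in testis somatic cells and at 50.7 SPM in ovary somatic cells, at least 297-fold higher in the ovary. Rec8, the gene of a meiotic cohesin subunit, was at 0.363 SPM in testis and 50.2 SPM in ovary somatic cells, against 26.5 SPM in male and 76.3 SPM in female germ cells. The ovary somatic level of Rec8 thus came near that of female germ cells, while the germ cell list as a whole stayed far below it. Fam196b, at 0.223 SPM in testis and 78.1 SPM in ovary somatic cells, overlaps Dock2 on the other strand, and Dock2 ran the same way, at 5.50 SPM in testis and 65.0 SPM in ovary somatic cells. Lzts1, Trim66 and 6330403A02Rik completed the 10, between 62.8-fold and 76.6-fold higher in the ovary.

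**Figure D2:**
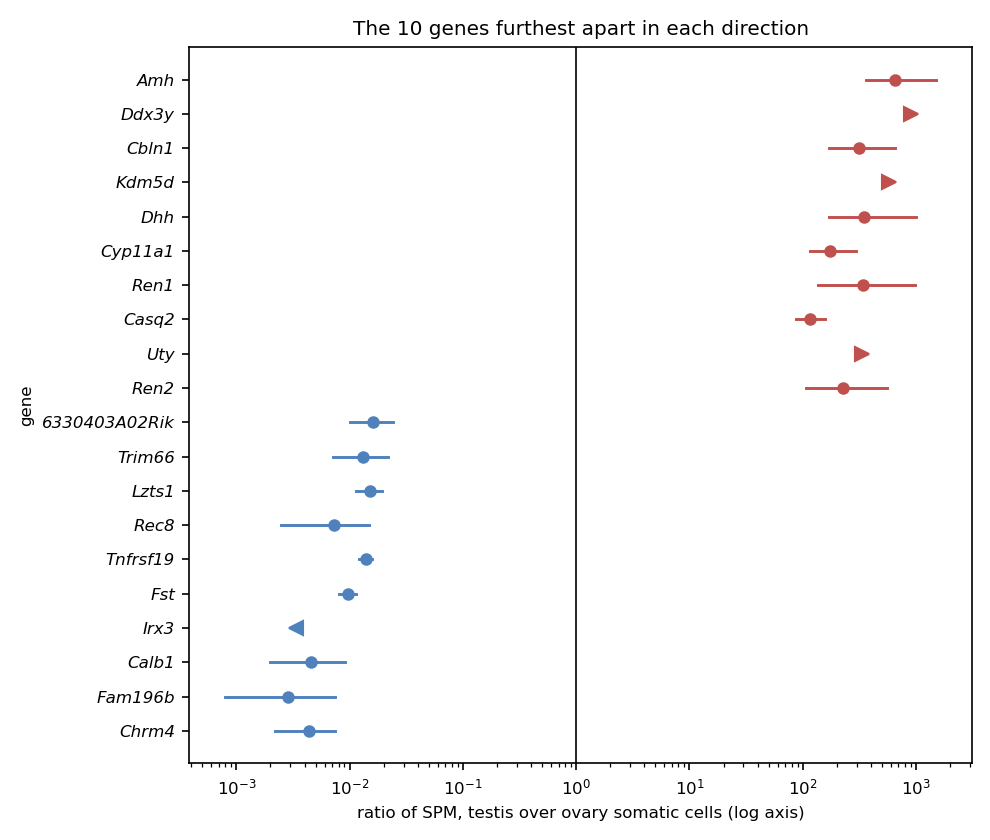
Ratio of SPM in testis over ovary somatic cells (log axis) for the 10 genes furthest apart in each direction. Circles are ratios with 95% counting intervals as lines, triangles are bounds for genes without a whole fragment in 1 library, red is higher in testis and blue higher in ovary; Amh and Fst have ratios of 657 and 0.00964.

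Many Sertoli cell genes were higher in testis somatic cells. List medians were higher for the signal list and other Sertoli genes than for the transcription factors, whose median log2 difference was 0.57. The transcription factor list also holds genes that both sexes use, such as Nr5a1 and Gata4. Of 8 measured Sertoli transcription factor genes at 1 SPM or more, 2 were called testis-higher and 1 ovary-higher. Over all genes at 1 SPM or more in either library these calls made up 2.21% and 3.02%. Dmrt1, a doublesex-related transcription factor gene, was at 15.5 SPM in testis and 0.292 SPM in ovary somatic cells (52.95-fold, 25.6 to 134). Sox8, which acts beside Sox9, was at 44.8 SPM in testis and 4.19 SPM in ovary somatic cells (10.7-fold, 8.71 to 13.3). Sox9 itself differed far less, at 17.3 SPM in testis and 8.03 SPM in ovary somatic cells, a ratio of 2.16 (1.79 to 2.59) that is under the size rule. Sry, which acts days earlier, was listed at 0 in both somatic libraries. Wt1, which both supporting cells and surface cells use, was at 102 SPM in testis and 379 SPM in ovary somatic cells. Nr0b1, an X-linked antagonist of testis formation that the pregranulosa list also holds, was at 2.96 SPM in testis and 16.1 SPM in ovary somatic cells (5.43-fold higher in the ovary, 4.05 to 7.39).

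Of 9 Sertoli signal genes, 5 were called testis-higher and 1 ovary-higher, with a median log2 difference of 4.40 against -0.12 over all 13887 genes at 1 SPM or more. Dhh (chromosome 15, 98723457 to 98728971) was at 91.6 SPM in testis and 0.262 SPM in ovary somatic cells, a ratio of 350.0 (169 to 1007). Cyp26b1, which encodes an enzyme that degrades retinoic acid, was at 53.5 SPM in testis and 1.16 SPM in ovary somatic cells (46.2-fold, 31.7 to 69.9). Ptgds, the gene of a prostaglandin D synthase, was at 80.1 SPM in testis and 1.63 SPM in ovary somatic cells (49.1-fold, 36.1 to 70.1). These genes and Gdnf, a neurotrophic factor gene at 24.0 SPM in testis and 0.665 SPM in ovary somatic cells, were all near empty in the ovary library. Fgf9, which sustains Sox9 in the early testis, did not separate them, at 8.90 SPM in testis and 7.35 SPM in ovary somatic cells (1.21-fold, 0.966 to 1.504). Kitl, the ligand of the germ cell receptor KIT, went the other way, at 98.1 SPM in testis and 1018 SPM in ovary somatic cells, 10.4-fold higher in the ovary (9.89 to 10.9).

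Of 16 further Sertoli genes, 9 were called testis-higher and none ovary-higher, with a median log2 difference of 3.01. Cst9, a cystatin family gene, was at 172 SPM in testis and 1.59 SPM in ovary somatic cells (108-fold, 79.7 to 155). Defb19, a beta-defensin gene, was at 176 SPM in testis and 9.23 SPM in ovary somatic cells (19.03-fold, 16.6 to 21.9). Both 17β-hydroxysteroid dehydrogenase genes of the list were testis-higher. Hsd17b3, which encodes the enzyme that forms testosterone, was at 40.5 SPM in testis somatic cells, against 0.0403 SPM or 1 fragment in ovary somatic cells, a ratio of 1005 with an interval of 175 to 38692. Hsd17b1 was at 100.4 SPM in testis and 1.06 SPM in ovary somatic cells. Tesc, Mmd2, Erbb4, Col9a3 and Serpine2 were the other testis-higher members, between 5.75-fold and 142-fold. Members with smaller ratios included Clu, the clusterin gene, at 642 SPM in testis and 477 SPM in ovary somatic cells, and Mro at 91.6 SPM in testis and 71.4 SPM in ovary somatic cells. In the germ cell libraries Amh stood at 9.30 SPM in male and 1.14 SPM in female. Somatic RNA in these libraries and expression in germ cells cannot be told apart.

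The upstream sequences of 2 testis-higher Sertoli genes are shown because they hold a searched motif in a window without annotated exons. The motifs were searched on both strands in the 250 bases before each gene's start, in RefSeq sequences of the GRCm38.p6 build: CAAGGNCA for NR5A1, AGATAA for GATA factors, AACAAT for SOX factors, GTAAACA for FOX factors and ATCAAAG for TCF factors. Capitals mark the motif, which starts 73 bases before the gene start in Erbb4, the gene of a neuregulin receptor (AACAAT on the other strand), and 84 bases before a start of Gdnf (AGATAA).
Erbb4 (chromosome 1, 69108060 to 69108309, minus strand): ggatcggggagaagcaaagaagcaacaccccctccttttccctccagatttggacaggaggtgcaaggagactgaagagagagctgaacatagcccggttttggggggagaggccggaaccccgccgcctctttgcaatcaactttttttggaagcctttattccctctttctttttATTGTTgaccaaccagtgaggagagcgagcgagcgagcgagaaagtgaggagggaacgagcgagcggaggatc
Gdnf (chromosome 15, 7813477 to 7813726, plus strand): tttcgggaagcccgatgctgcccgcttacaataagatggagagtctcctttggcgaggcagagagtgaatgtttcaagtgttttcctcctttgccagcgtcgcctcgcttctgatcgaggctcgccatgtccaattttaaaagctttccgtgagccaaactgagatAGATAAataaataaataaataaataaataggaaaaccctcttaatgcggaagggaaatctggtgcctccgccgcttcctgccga
Erbb4 was at 27.9 SPM in testis and 1.44 SPM in ovary somatic cells (19.4-fold, 13.7 to 28.0). Such motifs are short and were also found upstream of many other genes. AACAAT was found upstream of 15 of the 208 testis-higher genes with a sequence (7.21%), 22 of 287 ovary-higher genes (7.67%) and 530 of 8488 genes at 5 SPM (6.24%). AGATAA was found upstream of 7.21% of testis-higher genes, 10.5% of ovary-higher genes and 6.63% of genes at 5 SPM. CAAGGNCA was found upstream of 3.85% of testis-higher genes, 6.97% of ovary-higher genes and 5.02% of genes at 5 SPM. For GTAAACA the shares were 2.88% of testis-higher, 3.14% of ovary-higher and 2.44% of genes at 5 SPM, and for ATCAAAG 1.92%, 3.48% and 2.63% of the same sets. Over all 27025 genes with a sequence the shares were 6.33% for CAAGGNCA, 11.4% for AGATAA, 10.9% for AACAAT, 3.54% for GTAAACA and 3.72% for ATCAAAG. A match of letters is a description and not a binding site.

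Many fetal Leydig genes were higher in the testis library as well. Of 14 measured members 4 were called testis-higher, Cyp11a1, Ren1, Cyp17a1 and Insl3, and none ovary-higher, 10 were at least 2-fold higher in the testis, and the median log2 difference was 1.46. At 2-fold and 1 SPM, 9.97% of all genes were testis-higher and 12.1% ovary-higher. Cyp11a1, which encodes the side-chain cleavage enzyme that turns cholesterol into pregnenolone, was at 148 SPM in testis and 0.846 SPM in ovary somatic cells (175-fold, 116 to 294). Cyp17a1 (chromosome 19) had a ratio of 55.3 (46.9 to 65.2). Insl3, the gene of insulin-like 3, was at 8.54 SPM in testis and 0.0705 SPM in ovary somatic cells (121-fold, 28.1 to 859.9). It overlaps Jak3 on the same strand, which was at 14.8 SPM in testis and 4.44 SPM in ovary somatic cells. Other steps of steroid synthesis had a sizeable level in the ovary library too. Star, the gene of the protein that brings cholesterol into mitochondria, was at 87.7 SPM in testis and 31.4 SPM in ovary somatic cells (2.79-fold, 2.56 to 3.05). Hsd3b1 was at 170 SPM in testis and 55.0 SPM in ovary somatic cells (3.09-fold, 2.89 to 3.30). The luteinizing hormone receptor gene Lhcgr was at 13.3 SPM in testis and 6.09 SPM in ovary somatic cells. Of 5 adrenal-type genes none was called. Mrap, which encodes an accessory protein of the corticotropin receptor, was the highest, at 2.39 SPM in testis and 8.07 SPM in ovary somatic cells (3.38-fold higher in the ovary, 2.41 to 4.83). Cyp21a1, Cyp11b1, Cyp11b2 and Mc2r were at 1.25 SPM or less in testis and 0.513 SPM or less in ovary somatic cells.

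Genes of cholesterol synthesis and uptake, which feed steroid production, leaned to the testis without passing the size rule there. Of 18 measured genes 9 had at least 2-fold higher levels in the testis and 2 in the ovary (9.97% and 12.1% of all genes at 1 SPM). The median log2 difference was 0.94. Cyp51, the gene of a demethylase of cholesterol synthesis, was at 226 SPM in testis and 88.1 SPM in ovary somatic cells (2.56-fold, 2.43 to 2.70). Npc1, which encodes a protein that exports cholesterol from lysosomes, was at 64.3 SPM in testis and 203 SPM in ovary somatic cells, 3.16-fold higher in the ovary (2.96 to 3.37). Soat1, which encodes the enzyme that esterifies cholesterol for storage, was the 1 called member and went against the list, at 169 SPM in testis and 695 SPM in ovary somatic cells (4.12-fold higher in the ovary, 3.96 to 4.29, or 3.82-fold with trimmed-mean-of-M scaling, which is under the rule).

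Hedgehog signalling genes differed most at the ligand Dhh and at target genes, with smaller differences among the transducers. DHH binds the receptor PTCH1, which frees SMO to act through GLI proteins, and Ptch1, Gli1 and Hhip are also switched on by the pathway. Of 13 measured genes 4 were called testis-higher (2.21% of all genes at 1 SPM) and none ovary-higher (3.02%): the ligand gene Dhh and these 3 targets. Ptch1 was at 211 SPM in testis and 23.4 SPM in ovary somatic cells (9.01-fold, 8.25 to 9.86). Gli1 was at 59.3 SPM in testis and 3.33 SPM in ovary somatic cells (17.8-fold, 14.1 to 22.5), and overlaps Arhgap9 on the other strand, at 6.27 SPM in testis and 2.19 SPM in ovary somatic cells. Hhip was at 65.5 SPM in testis and 1.96 SPM in ovary somatic cells (33.3-fold, 25.1 to 46.1). Of the transducer genes, Gli2 was at 67.6 SPM in testis and 22.4 SPM in ovary somatic cells (3.02-fold, 2.72 to 3.34), under the size rule. Smo was at 337 SPM in testis and 389 SPM in ovary somatic cells, Gli3 at 73.7 SPM in testis and 76.8 SPM in ovary somatic cells, and the co-receptor gene Cdon at 221 SPM in testis and 288 SPM in ovary somatic cells.

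Stromal and contractile genes were also higher in the testis library. Of 13 interstitial genes 10 had at least 2-fold higher levels in the testis and none in the ovary (9.97% and 12.1% of all genes at 1 SPM). The median log2 difference was 1.67, and 4 passed the size rule: Inhba, Vcam1, Nes and Dlk1. Inhba, an activin subunit gene, was at 26.9 SPM in testis and 0.755 SPM in ovary somatic cells (35.6-fold, 22.6 to 61.5). Pdgfra, a platelet-derived growth factor receptor gene of stromal cells, was at 2324 SPM in testis and 802 SPM in ovary somatic cells (2.90-fold, 2.85 to 2.95). Lhx9, a homeobox gene of the early gonad, was close, at 159 SPM in testis and 162 SPM in ovary somatic cells. Of 9 smooth muscle genes, which peritubular myoid cells and vessel walls express, 8 were at least 2-fold higher in the testis, and Acta2 and Tagln passed the size rule. Acta2, the smooth muscle actin gene, was at 748 SPM in testis and 117 SPM in ovary somatic cells (6.39-fold, 6.14 to 6.66). Myh11 was at 154 SPM in testis and 71.9 SPM in ovary somatic cells.

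Matrix genes also leaned to the testis. Of 15 fibrillar matrix genes 6 had at least 2-fold higher levels in the testis (9.97% of all genes at 1 SPM). None passed the size rule in either direction, and the median log2 difference was 0.94. Col1a2, a type I collagen gene, was at 5278 SPM in testis and 1624 SPM in ovary somatic cells (3.25-fold, 3.21 to 3.29), and Fbn1, the fibrillin 1 gene, at 2398 SPM in testis and 623 SPM in ovary somatic cells (3.85-fold, 3.78 to 3.92). Of 18 basement membrane genes 4 were called testis-higher, namely Col4a1, Col4a4, Lama2 and Fn1, and none ovary-higher (2.21% and 3.02% of all genes at 1 SPM). Col4a1, a type IV collagen gene, was at 1554 SPM in testis and 350.5 SPM in ovary somatic cells (4.43-fold, 4.33 to 4.55). Lama1, a laminin chain gene, was close, at 678 SPM in testis and 815 SPM in ovary somatic cells. In the Notch list of 13 genes the ligand gene Jag1, at 197 SPM in testis and 25.6 SPM in ovary somatic cells (7.70-fold, 7.07 to 8.40), and Heyl, a pathway target of vessel walls, at 102 SPM in testis and 11.7 SPM in ovary somatic cells, were called testis-higher and none ovary-higher. None of 6 PDGF genes was called, and 3 were at least 2-fold higher in the testis, Pdgfa, Pdgfra and Pdgfrb.

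Most pregranulosa genes were higher in ovary somatic cells. Of 15 measured members 12 were called ovary-higher and none testis-higher (3.02% and 2.21% of all genes at 1 SPM), with a median log2 difference of -3.61. Among transcription factor genes, Foxl2 was 55.4-fold higher in the ovary (18.3 to 265), on 3 fragments in testis somatic cells. Runx1, a supporting cell gene of the fetal ovary, was at 3.27 SPM in testis and 117 SPM in ovary somatic cells (35.8-fold, 27.4 to 46.9). Irx5, the neighbour of Irx3, was listed at 0 in testis and at 12.9 SPM in ovary somatic cells, at least 75.7-fold higher in the ovary, and Emx2 was at 9.24 SPM in testis and 67.8 SPM in ovary somatic cells (7.33-fold, 6.25 to 8.69). Both Irx genes were thus empty in the testis library, while Emx2 kept a level there. Among secreted factors, Rspo1 was at 8.10 SPM in testis and 104 SPM in ovary somatic cells (12.9-fold, 10.9 to 15.4), and Bmp2 at 3.95 SPM in testis and 40.6 SPM in ovary somatic cells (10.3-fold, 8.09 to 13.4). Wnt4 was the exception, at 80.9 SPM in testis and 141 SPM in ovary somatic cells, a ratio of 1.74 towards the ovary (1.63 to 1.85). The estrogen receptor gene Esr2 stood the other way, at 15.0 SPM in testis and 6.86 SPM in ovary somatic cells, and the aromatase gene Cyp19a1 was at 0 in testis and 0.0201 SPM in ovary somatic cells, under the floor. Gng13, a G protein subunit gene at 0.428 SPM in testis and 23.7 SPM in ovary somatic cells, overlaps Chtf18 on the other strand, at 55.3 SPM in testis and 43.5 SPM in ovary somatic cells.

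WNT target and inhibitor genes differed in both directions. Of 16 measured genes of WNT targets and inhibitors 4 were called ovary-higher, Lgr5, Lef1, Rnf43 and Sp5 (3.02% of all genes at 1 SPM). Dkk1 was the 1 testis-higher gene (2.21%). The median log2 difference was -0.72. Lgr5, the gene of an R-spondin receptor, was at 9.72 SPM in testis and 150.4 SPM in ovary somatic cells (15.5-fold, 13.3 to 18.1). Rnf43, which encodes an enzyme that removes WNT receptors, was at 2.37 SPM in testis and 39.6 SPM in ovary somatic cells (16.7-fold, 12.2 to 23.2). Axin2, a widely used target gene of the pathway, was at 34.3 SPM in testis and 101 SPM in ovary somatic cells, 2.94-fold higher in the ovary (2.69 to 3.22) and so under the size rule. The secreted WNT inhibitor gene Dkk1 was at 5.80 SPM in testis and 0.644 SPM in ovary somatic cells (8.99-fold, 5.15 to 15.9).

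The transforming growth factor beta family held large differences in both directions, with a median log2 difference of -0.02 (0.10 with trimmed-mean-of-M scaling). Of 33 measured genes 2 were called testis-higher, Amh and Inhba, and 4 ovary-higher, Fst, Bmp2, Amhr2 and Bmpr1b. Such calls made up 2.21% and 3.02% of all genes at 1 SPM. Ligand and receptor ran in opposite directions for AMH: its receptor gene Amhr2 was at 98.4 SPM in testis and 576 SPM in ovary somatic cells, 5.86-fold higher in the ovary (5.57 to 6.16). The inhibin and activin subunit genes Inha and Inhbb had ratios above 1 but under the size rule, opposite to the activin antagonist gene Fst. Inha was at 94.1 SPM in testis and 29.8 SPM in ovary somatic cells (3.16-fold, 2.89 to 3.45), and Inhbb at 108 SPM in testis and 37.9 SPM in ovary somatic cells (2.86-fold, 2.64 to 3.10). The shared signal transducer gene Smad4 was at 221 SPM in testis and 223 SPM in ovary somatic cells, whereas Smad3 was at 140 SPM in testis and 307 SPM in ovary somatic cells.

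**Figure D3:**
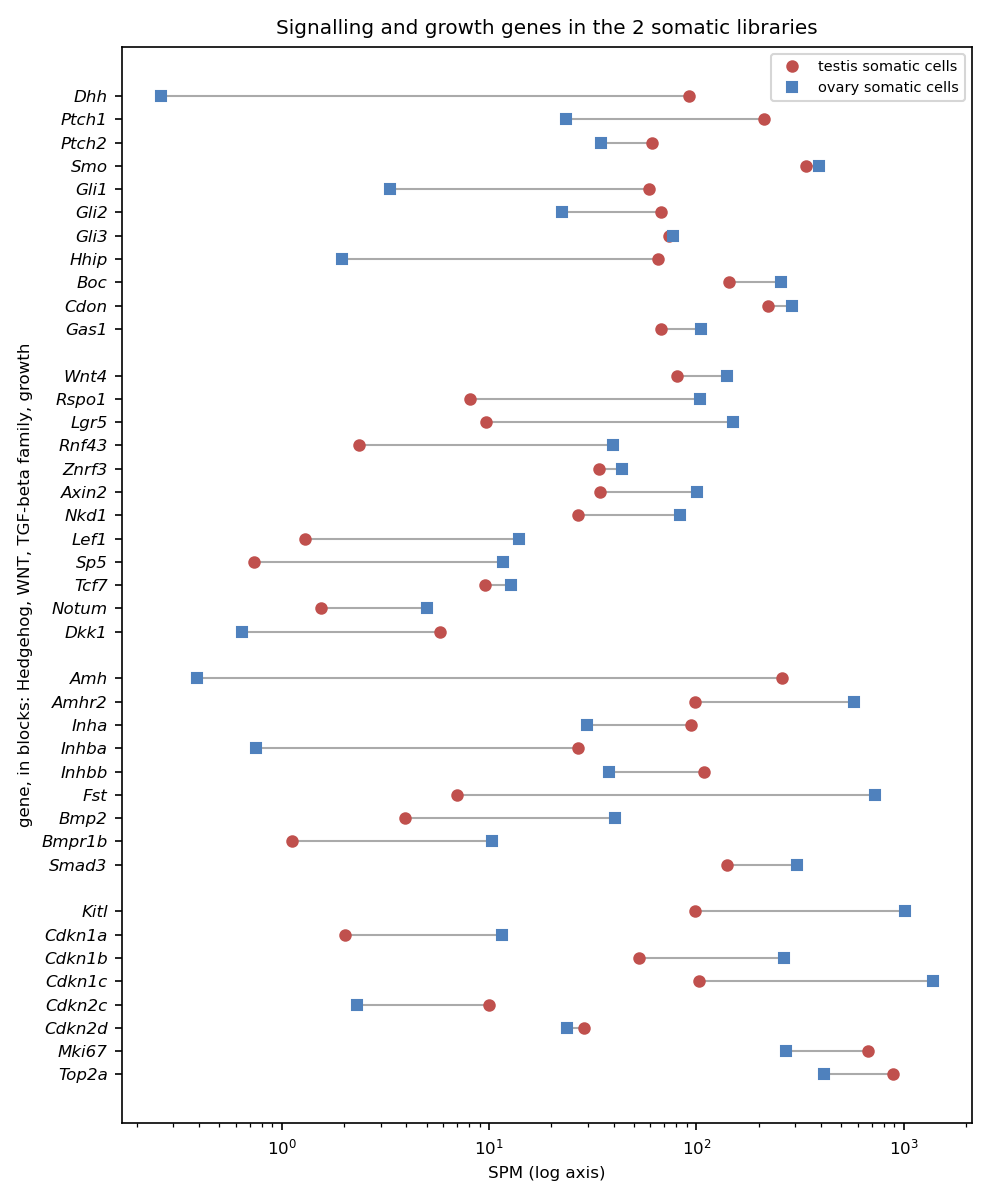
Levels of single genes in testis somatic cells (red circles) and ovary somatic cells (blue squares), 1 library each, in SPM on a log axis, in blocks for Hedgehog, WNT, the TGF-beta family and growth. Dhh, Ptch1, Gli1 and Hhip lie to the right in testis, Lgr5, Fst and Cdkn1c in ovary, and Smo and Gli3 almost coincide.

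In the retinoic acid list the degrading enzyme gene Cyp26b1 was the 1 called gene of 17 measured. Testis-higher and ovary-higher calls made up 2.21% and 3.02% of all genes at 1 SPM. The synthesis gene Aldh1a2 was at 108 SPM in testis and 239 SPM in ovary somatic cells (2.22-fold higher in the ovary, 2.10 to 2.34), and Aldh1a1 at 659 SPM in testis and 459.6 SPM in ovary somatic cells. Receptor genes were close, with Rara at 59.5 SPM in testis and 63.1 SPM in ovary somatic cells. Of 14 FGF genes Spry1, a feedback inhibitor gene, was the 1 called gene, at 98.3 SPM in testis and 21.9 SPM in ovary somatic cells (4.50-fold, 4.08 to 4.97). The receptor gene Fgfr2 was at 102 SPM in testis and 391 SPM in ovary somatic cells, 3.82-fold higher in the ovary (3.63 to 4.02).

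Of the growth control genes, 3 inhibitors of cyclin-dependent kinases were higher in the ovary library, and proliferation genes had smaller ratios towards the testis. Cdkn1c, the p57 gene and an imprinted growth inhibitor, was at 102 SPM in testis and 1388 SPM in ovary somatic cells (13.55-fold higher in the ovary, 12.9 to 14.2). Cdkn1b, the p27 gene, was at 52.6 SPM in testis and 264 SPM in ovary somatic cells (5.02-fold, 4.68 to 5.38), and Cdkn1a, the p21 gene, at 2.03 SPM in testis and 11.5 SPM in ovary somatic cells (5.67-fold, 3.96 to 8.18). Of 5 measured inhibitor genes these 3 were called ovary-higher (3.02% of all genes at 1 SPM). Cdkn2c, at 10.03 SPM in testis and 2.31 SPM in ovary somatic cells, was called testis-higher (2.21%). Of 18 proliferation genes 8 had at least 2-fold higher levels in the testis and none in the ovary (9.97% and 12.1% of all genes at 1 SPM). The median log2 difference was 0.94, and none passed the size rule. Mki67 was at 670.1 SPM in testis and 271 SPM in ovary somatic cells (2.48-fold, 2.40 to 2.55), and Bub1, a mitotic checkpoint gene, at 43.3 SPM in testis and 14.7 SPM in ovary somatic cells (2.94-fold, 2.59 to 3.34). Of 66 clustered histone genes at 1 SPM or more, a list added after values were seen, 21 were at least 2-fold higher in the testis and 2 in the ovary.

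Surface epithelium genes leaned to the ovary library, with 5 of 9 measured genes at least 2-fold higher there (12.1% of all genes) and none in the testis (9.97%). The others, Upk1b, Krt14, Msln and Lrrn4, were within 2-fold. Among them Msln was at 2.05 SPM in testis and 2.51 SPM in ovary somatic cells, and Lrrn4 at 17.0 SPM in testis and 17.6 SPM in ovary somatic cells. Of 9 measured genes 3 were called ovary-higher, the keratin genes Krt8, Krt18 and Krt19, and none testis-higher, with a median log2 difference of -1.73. Over all genes at 1 SPM, 3.02% were called ovary-higher and 2.21% testis-higher. Krt19 was at 31.5 SPM in testis and 288 SPM in ovary somatic cells (9.16-fold, 8.40 to 10.01), and Upk3b, a marker of the covering mesothelium, at 63.9 SPM in testis and 213 SPM in ovary somatic cells (3.34-fold, 3.13 to 3.57). Cgn, the gene of the tight junction protein cingulin, was at 46.2 SPM in testis and 335 SPM in ovary somatic cells (7.26-fold, 6.75 to 7.81). Of 12 junction genes Cgn was called ovary-higher and Jam2 testis-higher. Cldn1 was 3.99-fold higher in the testis, under the size rule, and 4.31-fold higher with trimmed-mean-of-M scaling. Of 6 measured mesonephric genes 2, Pax8 and Ret, were called ovary-higher and none testis-higher. Some defining markers were near absent from both libraries: Pax2 was at 0.102 SPM in testis and 0.101 SPM in ovary somatic cells and Lhx1 at 0 in testis and 0.121 SPM in ovary somatic cells, all under the floor of 3 fragments, while Pax8 was at 1.66 SPM in testis and 8.32 SPM in ovary somatic cells.

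**Figure D4:**
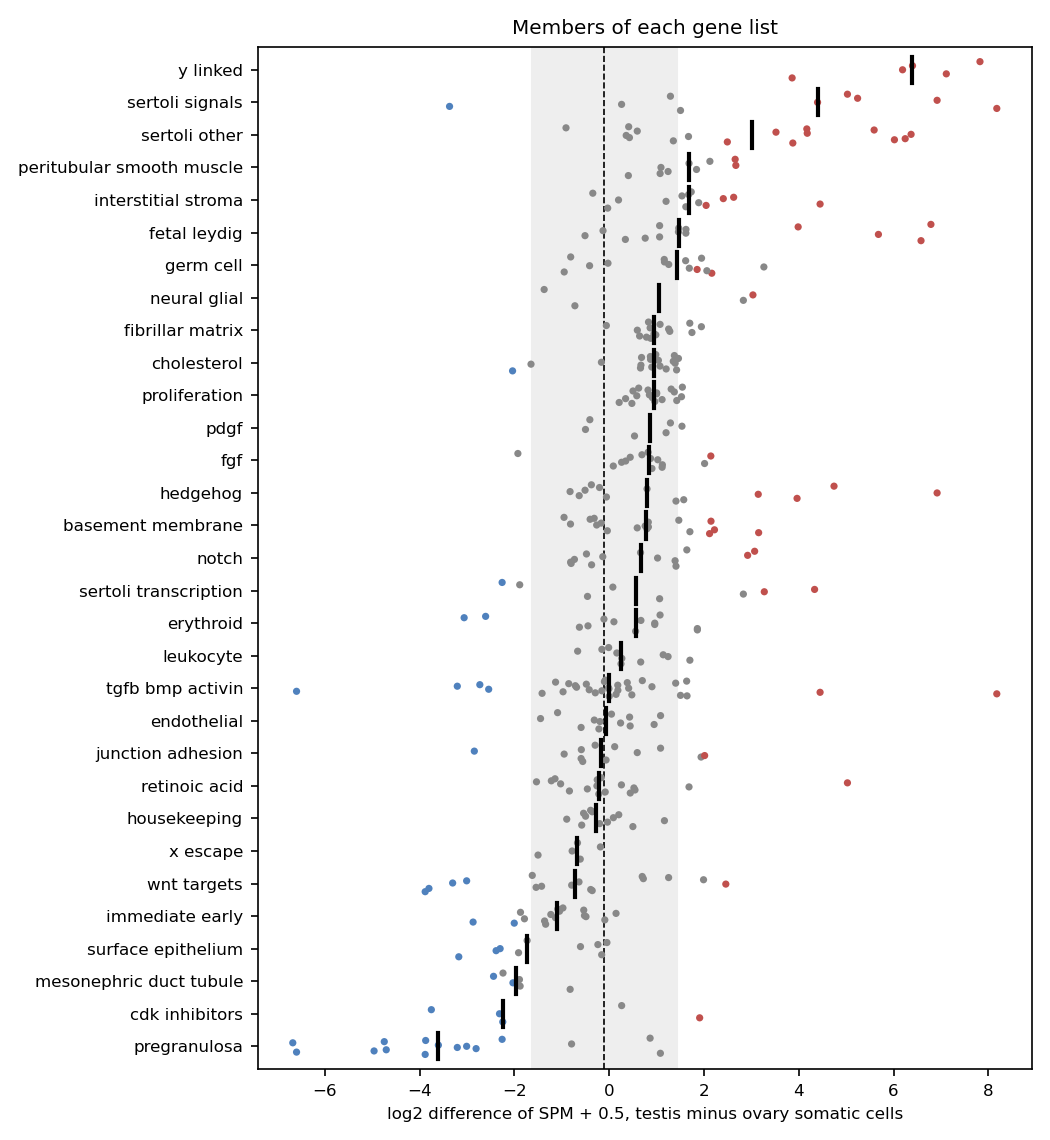
Log2 difference of SPM + 0.5, testis minus ovary somatic cells, of each list member at 1 SPM or more (points; red testis-higher and blue ovary-higher by the size rule), with the list median as a black bar. The dashed line is the median and the grey band the 5th to 95th percentile of all 13887 genes; the Sertoli signal list has its median at 4.40 and the pregranulosa list at -3.61.

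Other cell types in the GFP-negative gate were present in both libraries. Of 12 endothelial genes 2 had at least 2-fold higher levels in the testis and 2 in the ovary library. Over all genes at 1 SPM these shares were 9.97% and 12.1%. The endothelial median log2 difference was -0.07 (0.03 with trimmed-mean-of-M scaling). Pecam1 was at 13.2 SPM in testis and 15.4 SPM in ovary somatic cells, and the receptor gene Kdr at 68.8 SPM in testis and 189 SPM in ovary somatic cells. Of 10 leukocyte genes 3 had at least 2-fold higher levels in the testis and none in the ovary, and the pan-leukocyte gene Ptprc was at 1.52 SPM in testis and 1.198 SPM in ovary somatic cells. Of 4 measured neural and glial genes Tubb3 was called testis-higher (2.21% of all genes at 1 SPM), and the neural crest gene Foxd3 was at 0 in both libraries. The erythroid list summed to 5.66% of the testis and 2.30% of the ovary somatic signal, and Hba-a1 was at 13078 SPM in testis and 3603 SPM in ovary somatic cells. Hba-a1 and Hba-a2 were listed over nearly the same interval with near-equal values, as were Hbb-b1 and Hbb-b2. The sum may therefore hold the same reads in both entries of a pair. It leaves out the globin entry Beta-s, at 12017 SPM in testis and 6020 SPM in ovary somatic cells, so it is no measure of red blood cell content. With the totals taken without this list, 334 genes were testis-higher and 411 ovary-higher. The erythroid regulator genes Klf1 and Gata1 ran against the globins, with Gata1 at 1.02 SPM in testis and 8.79 SPM in ovary somatic cells (8.59-fold, 5.29 to 14.7).

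Germ cell genes were low in both somatic libraries and higher in the testis one. The 16 genes of the list summed to 77.3 SPM in testis somatic cells, which is 0.795% of their sum in male germ cells, and to 32.5 SPM in ovary somatic cells, which is 0.484% of their sum in female germ cells. Of 14 measured members 10 were at least 2-fold higher in the testis somatic library and 2 in the ovary one (9.97% and 12.1% of all genes at 1 SPM). Pou5f1, whose promoter drives the reporter, was at 4.49 SPM in testis and 0.0201 SPM in ovary somatic cells, and the ovary value is under the floor. Without genes at 10-fold or higher level in germ cells of the same sex, 295 genes were testis-higher and 419 ovary-higher. The germ cell comparison, which uses other libraries, gave the following for the same genes. By the same size rule, 83 of the 307 testis-higher genes (27.0%) were higher in male than in female germ cells and 4 (1.30%) higher in female germ cells. Of the 420 ovary-higher genes 75 (17.9%) were male-higher and 15 (3.57%) female-higher in germ cells. Over all 11832 genes at 5 SPM the shares were 10.9% for male and 6.13% for female germ cells. The 4 called Leydig genes also had signal in the male germ library and were listed at 0 in the female one. There Cyp17a1 was at 22.0 SPM, Cyp11a1 at 9.51 SPM, Ren1 at 2.10 SPM and Insl3 at 0.606 SPM in male germ cells. Somatic RNA in a germ library and expression in germ cells cannot be told apart in these shares.

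**Figure D5:**
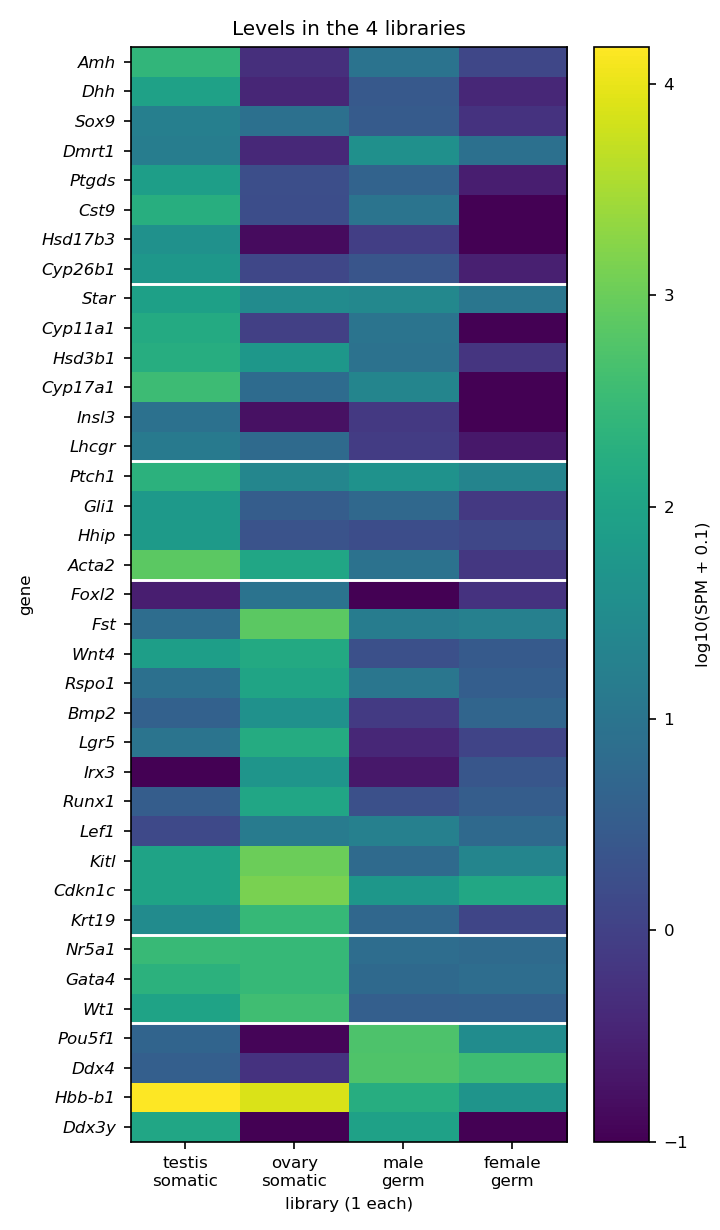
Levels of selected genes in the 4 libraries, with genes as rows, libraries as columns and colour giving log10(SPM + 0.1). White lines part blocks of Sertoli, Leydig, Hedgehog with smooth muscle, ovary, gonadal transcription factor and control genes. The ovary block, Foxl2 to Krt19, holds genes called ovary-higher and Wnt4, which was not called. Pou5f1 is at 4.49 SPM in testis and 0.0201 SPM in ovary somatic cells, and Ddx3y is at 0 in both female libraries.

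The sex chromosomes matched the labels. Of 9 listed Y-linked genes 5 were at 1 SPM or more, all called testis-higher, and the list summed to 271 SPM in testis and 0.0403 SPM in ovary somatic cells. Ddx3y was at 113 SPM in testis somatic cells and listed at 0 in ovary somatic cells, at least 908-fold higher in the testis, and Eif2s3y at 37.5 SPM in testis and 0.0201 SPM in ovary somatic cells, at least 302-fold. Of 395 X-linked genes at 5 SPM 9 were testis-higher (2.28%) and 19 ovary-higher (4.81%), against 2.56% and 3.51% of 11432 autosomal genes. Among the X-linked genes past the size rule that are named here, the largest plain ratios in each direction were those of Cited1, a transcription coregulator gene at 17.2 SPM in testis and 1.09 SPM in ovary somatic cells (15.8-fold, 10.7 to 24.9), and Gdpd2 at 2.40 SPM in testis and 58.4 SPM in ovary somatic cells (24.3-fold higher in the ovary, 18.0 to 34.0). Dcaf12l1, the furthest of these towards the ovary on the scale of SPM + 0.5, was at 14.8 SPM in testis and 325 SPM in ovary somatic cells. None of 5 genes known to escape X inactivation was called, and Kdm6a came nearest, at 49.9 SPM in testis and 142 SPM in ovary somatic cells (2.85-fold, 2.65 to 3.08).

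Immediate early genes, which respond within minutes to stimuli including tissue dissociation, were higher in the ovary library. Of 16 measured genes 10 had at least 2-fold higher levels in the ovary (12.1% of all genes at 1 SPM) and none in the testis (9.97%). Egr2 and Atf3 were called, against 3.02% of all genes at 1 SPM called ovary-higher. Atf3 was at 14.1 SPM in testis and 58.2 SPM in ovary somatic cells (4.12-fold, 3.60 to 4.74), and its call was lost with trimmed-mean-of-M scaling (3.81-fold), upper-quartile scaling (3.81-fold) and the total without the erythroid list (3.98-fold). Fos was at 282 SPM in testis and 726 SPM in ovary somatic cells (2.58-fold, 2.50 to 2.66), and Egr2 at 5.82 SPM in testis and 45.8 SPM in ovary somatic cells (7.87-fold, 6.44 to 9.77). The part of sample handling in these values, and in the other ovary-higher genes, was not tested. Housekeeping genes lay near each other, with Actb at 3749 SPM in testis and 3528 SPM in ovary somatic cells and Gapdh at 124 SPM in testis and 175 SPM in ovary somatic cells. Of 12 such genes B2m alone was 2-fold apart, at 62.5 SPM in testis and 27.6 SPM in ovary somatic cells.

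Per kb of listed gene length, the highest signals of both somatic libraries were those of the adult globins, the elongation factor gene Eef1a1, the ribosomal protein gene Rpl41 and Actb. Eef1a1 was at 6080.0 SPM per kb in testis and 5727 SPM per kb in ovary somatic cells. The 10 highest testis genes also held the histone genes Hist1h3c, at 1926 SPM per kb in testis and 615 in ovary somatic cells, and Hist1h1a, and the 10 highest ovary genes held Tmsb4x, an actin-binding peptide gene, at 933 SPM per kb in testis and 1802 in ovary somatic cells. Beside these, Amh was at 154 SPM per kb in testis and Fst at 311 SPM per kb in ovary somatic cells.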

How the data were processed

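RNA of 4 sorted fractions was sequenced as strand-specific paired-end libraries after depletion of ribosomal RNA, per the labels' protocols. CASAVA 1.9, TopHat 1.2.0, edgeR and the build mm9 are listed in the submitters' processing notes, where their roles are missing. The sources used here do not say how reads were counted, on which annotation or whether by strand. The authors deposited 1 signal value per gene and library, in a column headed counts. They are whole numbers, yet their low values cluster at a spacing of 6.12 in testis somatic cells and 4.11 in ovary somatic cells, with 50.9% (testis) and 49.2% (ovary) of values from 1 to 60 on its rounded multiples, against 16.3% and 24.3% by chance. They were therefore treated as scaled and rounded, and the planned analysis used signal and not a count model. The spacing was taken as 1 fragment, and fragment numbers are estimates for that reason. PCR copies cannot be told from separate molecules.

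Of 20373 rows, 74 repeated a position and all values and were kept once, leaving 20299 genes. Each library was divided by its total (107 M for testis and 99.3 M for ovary somatic cells) and given in SPM. Log2 differences used SPM + 0.5. A gene without a whole fragment was set at the floor of 3 fragments. The size rule was 4-fold and 5 SPM. List members were counted from 1 SPM in either library, also at 2-fold. Named genes were the 10 furthest apart in each direction at 20 SPM or more, members of 32 lists, the 10 highest per kb in each library and X-linked genes past the size rule, up to 5 a direction. The members and lists were chosen with earlier results of these data known. The listed lengths and mm9 coordinates are as the files give them. Overlaps with other listed genes were noted, leaving out listed spans over 2500000 bases, such as that of Cdkn2d, which join separate loci. Of 307 testis-higher and 420 ovary-higher genes, 21 and 27 overlap another listed gene. The share of overlaps over all genes was not counted, so nothing is read from these counts. Ratios, spacing and intervals were tested on simulated data. Python 3.11.15, numpy 2.4.6, pandas 2.3.3, scipy 1.17.1 and matplotlib 3.10.9 were used.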

Additional observations from a re-analysis of the deposited data

Results flagged for a closer look

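Among all called genes, 75 of the 420 ovary-higher genes (17.9%) were male-higher in germ cells, and 4 of the 307 testis-higher genes (1.30%) female-higher. Over all genes at 5 SPM, 10.9% were male-higher and 6.13% female-higher in germ cells. For 8 genes named by the rules above, the sex difference met the size rule in opposite directions in somatic and in germ cells. With 1 library in each group this difference between cell types was not tested. Values are log2 differences of SPM + 0.5, testis minus ovary for somatic and male minus female for germ cells. Lzts1 had -5.86 in somatic and 2.21 in germ cells, Krt19 had -3.17 and 1.84, and the cholesterol esterification gene Soat1 -2.04 and 2.96. Krt19 was at 5.27 SPM in male and 1.11 SPM in female germ cells, just over the minimum of 5 SPM. The part of somatic RNA in the germ cell values was not tested. The calcium pump gene Atp2b3 had -3.69 in somatic and 2.42 in germ cells, the BMP receptor gene Bmpr1b -2.73 and 3.90, and Pax8 -2.03 and 3.46. In the other order, Cited1 had 3.48 in somatic and -4.35 in germ cells, and the kinase inhibitor gene Cdkn2c 1.91 and -3.36. The somatic call of Soat1 rests on scaling to the library total, since its ratio was 3.82-fold with trimmed-mean-of-M factors, 3.81-fold with upper-quartile scaling and 3.98-fold without the erythroid list in the total, all under the size rule. Levels of Soat1 were 169 SPM in testis somatic cells and 695 SPM in ovary somatic cells, and 205 SPM in male germ cells and 26.0 SPM in female germ cells.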

How the results depend on the processing

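No paired analysis was possible because each group has 1 library, and leaving out a replicate was not possible for the same reason. Testis-higher and ovary-higher genes numbered 307 and 420 as reported. They numbered 183 and 217 with a minimum of 20 SPM, 538 and 661 with 1 SPM, 752 and 825 with no minimum level, 938 and 1192 at 2-fold, 151 and 199 at 8-fold, and 141 and 159 from the ratio of SPM + 5. Upper-quartile and trimmed-mean-of-M scaling both gave 344 and 378, and under the remaining alternatives the counts stayed within 1.5 times, with more ovary-higher than testis-higher genes under every alternative run. Of 414 named gene ratios, 18 crossed 1 under another scaling, all between 0.930 and 0.9996 as reported; none of the 99 named genes past the size rule did. Among named calls Soat1 and Atf3 were lost under 3 scalings, at 3.82-fold and 3.81-fold with trimmed-mean-of-M factors. Of 32 list medians, 13 were marked as moved under another setting. The median of the TGF-beta family turned to 0.0959 with trimmed-mean-of-M and 0.0963 with upper-quartile scaling. It turned to 0.0351 without the erythroid list in the total. The median of endothelial genes turned to 0.0330 with trimmed-mean-of-M and 0.0334 with upper-quartile scaling. Depth limits genes near 3 fragments, such as Foxl2 in testis somatic cells.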
